A study of Mus musculus with 2 samples.

Results

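The genes described here are 10 genes of antigen presentation by major histocompatibility complex (MHC) class I, out of 32228 genes counted in a pair of single-cell libraries of immune cells from the inflamed mouse colon. They were taken by name and not by a cut on a measured value, but with earlier results of these data known. In 3 of them, H2-K1, H2-D1 and B2m, the product is a chain of the class I molecule. Tap1, Tap2 and Tapbp transport and load the peptide, Psmb8, Psmb9 and Psmb10 are the catalytic subunits of the immunoproteasome, and Nlrc5 is a transactivator of class I genes. All 10 were counted in both libraries.

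One library, labelled WT, came from wild-type mice and the other, labelled Ring1AKO, from littermates in which Ring1A was knocked out in the whole body. The mice of both groups were sex-matched, of the C57BL/6 strain and 8 to 10 weeks old per the labels (8 to 12 weeks in the methods of the study), and both groups drank 2.5% dextran sodium sulfate (DSS), which injures the colonic epithelium and causes colitis, for 7 or 8 days. Viable cells of the colonic lamina propria (LP) were sorted as CD45+7AAD-, and the cells of 5 mice were pooled for each library. With 1 pooled library per group the spread between mice is not known, genotype and library cannot be told apart, no test was made, and the intervals given are exact 95% intervals that cover counting error only.

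Class I molecules carry peptides from inside the cell to its surface, where CD8 T cells read them. The proteasome cuts proteins into peptides, and interferon-gamma replaces its constitutive catalytic subunits Psmb5, Psmb6 and Psmb7 with Psmb8, Psmb9 and Psmb10, a form called the immunoproteasome. The Tap1 and Tap2 proteins form the transporter that moves peptides into the endoplasmic reticulum, and tapasin, encoded by Tapbp, holds the empty class I molecule next to it. Irf1 relays the interferon signal to many of these genes, and Nlrc5 acts at class I promoters. In the gut, class I presentation is used by nearly all cells and is strengthened during inflammation.

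The promoters of these genes were searched for the core letters of known control sequences. RefSeq windows of 300 bases (250 before and 50 after the start, GRCm38.p6) were found for 8 of the 10 genes, H2-K1 having more than one, and were searched on both strands. The core of the interferon-stimulated response element, searched as GAAANNGAA, was in 8.56% of 32851 windows and, among the 8 genes, in that of B2m. The gamma-activated site, searched as TTCNNNGAA, was in 8.30% of windows and, among the 8 genes, in that of Psmb8, 97 bases before the start. The CCAAT box, searched as CCAAT, was in 37.4% of windows and in those of B2m, Tapbp, H2-K1, H2-D1, Psmb9 and Tap1. The core of the kappa-B site of the class I heavy chains, searched as GGGATTCCC, was in 116 windows in all (0.353%), among them those of H2-K1 and H2-D1. Matches to these letters are a description and do not show binding, and a window without a match says nothing of the factor. The stretches before the starts of B2m (chr2:122147437-122147685, + strand) and H2-K1 (chr17:34000348-34000597, - strand) are shown because they matched different strings, in capitals. These are GAAANNGAA and a CCAAT box in B2m, and GGGATTCCC and a CCAAT box in H2-K1. The CCAAT box is read on the opposite strand as ATTGG in both. Variants of these strings were not searched, so either stretch can hold further elements of these kinds in lower case.
B2m: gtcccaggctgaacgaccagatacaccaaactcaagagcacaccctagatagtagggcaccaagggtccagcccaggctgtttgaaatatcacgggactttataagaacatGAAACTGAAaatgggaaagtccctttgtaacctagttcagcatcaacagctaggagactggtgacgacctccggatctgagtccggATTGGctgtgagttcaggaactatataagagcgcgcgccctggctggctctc
H2-K1: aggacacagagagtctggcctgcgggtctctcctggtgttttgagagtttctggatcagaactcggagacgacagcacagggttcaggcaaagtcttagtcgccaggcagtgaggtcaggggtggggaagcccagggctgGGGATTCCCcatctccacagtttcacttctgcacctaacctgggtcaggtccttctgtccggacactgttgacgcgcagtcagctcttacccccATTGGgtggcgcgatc

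Tap1 and Psmb9 lie head to head and their windows share 275 bases. The 30 bases around the CCAAT box they share (chr17:34187322-34187351) are shown in the direction of each gene, with the box in capitals.
Tap1: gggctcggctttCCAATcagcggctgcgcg
Psmb9: cgcgcagccgctgATTGGaaagccgagccc

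In the GENCODE vM21 annotation of GRCm38, 7 of the 10 genes lie on chromosome 17 in the MHC region, which also holds Ring1, the gene knocked out. H2-K1 lies 20.4 kb from Ring1, Tapbp 91.5 kb, Psmb9 157 kb, Tap1 163 kb, Psmb8 173 kb, Tap2 179 kb and H2-D1 1238 kb. Psmb10 and Nlrc5 lie on chromosome 8 and B2m on chromosome 2. B2m, Nlrc5, Psmb10, Tapbp, Psmb9, Tap1, Psmb8 and Tap2 each overlap an annotated gene on the opposite strand (Psmb9 and Tap1 overlap each other by 212 bases), and Tapbp overlaps Zbtb22 on the same strand by 3422 bases, where reads cannot be assigned by strand. The sources used here do not state whether counting used the strand. H2-K1 and H2-D1 are close in sequence to each other and to the H2-Q genes, so reads could be split between them, and their counts are uncertain for that reason.

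Barcodes with at least 1000 unique molecular identifiers (UMIs, each a counted transcript), at least 500 genes and less than 5% mitochondrial UMIs were kept as cells, 6005 from the WT pool (median 6354 UMIs) and 7918 from the Ring1AKO pool (median 5035 UMIs). Of these, 4070 and 5841 met the marker gate of exactly 1 of 10 classes. The classes held, in WT and Ring1AKO, 1189 and 3622 B cells, 371 and 267 plasma cells, 586 and 499 CD4 T cells, 498 and 551 CD8 T cells, 126 and 77 NK cells, 151 and 112 ILC2, 538 and 129 monocytes, 206 and 177 C1q macrophages, 228 and 230 neutrophils, and 177 and 177 dendritic cells. Of 4 markers per class that no gate used, all 4 were highest or next to highest in their own class in both libraries, except in NK cells, where 3 of 4 were. Between 1.81% and 48.1% of a class held just the minimum number of markers, with the highest shares in the NK, dendritic and ILC2 gates. The libraries shared 11 barcodes among the kept cells. Ring1 itself had 828 UMIs (13.4 CPM) in cells labelled WT and 816 (11.8 CPM) in cells labelled Ring1AKO, so its transcript was not lost in the library labelled Ring1AKO. The part of the gene that the knockout removes was not analysed here, and a 3' count outside that part cannot check the label.

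Levels are UMIs of a gene summed over the cells of a class, per 1000000 UMIs of that class (CPM), with no scaling by length since each UMI counts 1 transcript near its 3' end. A pair of values gives WT first and Ring1AKO second. Classes are ordered, and spans between them taken, by the mean of both libraries. The levels of all 3 class I chains were high in NK cells. H2-K1 was highest there (3648 and 4010 CPM), clear of CD4 T cells, which came next (2694 and 2481 CPM), and lowest in plasma cells (822 and 608 CPM). H2-D1 followed the same order at its ends, from 2916 and 3302 CPM in NK cells to 607 and 475 CPM in plasma cells. B2m varied least, by 2.11-fold between NK cells (3664 and 3949 CPM) and B cells (1733 and 1869 CPM), and its values in NK cells and C1q macrophages (3777 and 3081 CPM) overlapped. The balance of the heavy chains differed by class, since H2-K1 made up 57.5% and 56.1% of the UMIs of both in plasma cells but 31.9% and 29.3% in neutrophils.

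The transporter and immunoproteasome genes had another order, with dendritic cells at the top. Tap1 was at 264 and 172 CPM, Tap2 at 159 and 112 CPM, Psmb8 at 952 and 847 CPM and Psmb9 at 555 and 400 CPM in dendritic cells labelled WT and Ring1AKO, and for each of these 4 genes both values lay above those of the class that came next. By the mean of both libraries, Tapbp was highest in C1q macrophages (329 and 223 CPM) and Psmb10 in monocytes (235 and 127 CPM). Both overlapped dendritic cells, the class that came next. In Ring1AKO alone dendritic cells were higher, at 270 CPM for Tapbp and 175 CPM for Psmb10. Nlrc5 was highest in CD8 T cells (85.3 and 72.0 CPM), apart from CD4 T cells (70.7 and 42.3 CPM), and lowest in plasma cells (7.25 and 2.54 CPM). The 16.1-fold span of Nlrc5 was the widest among the 10 genes, which otherwise spanned 2.11-fold to 6.51-fold. Immunoglobulin transcripts took 58.9% and 69.2% of the UMIs of plasma cells, so every other gene there is measured against a smaller remainder.

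**Figure D1:**
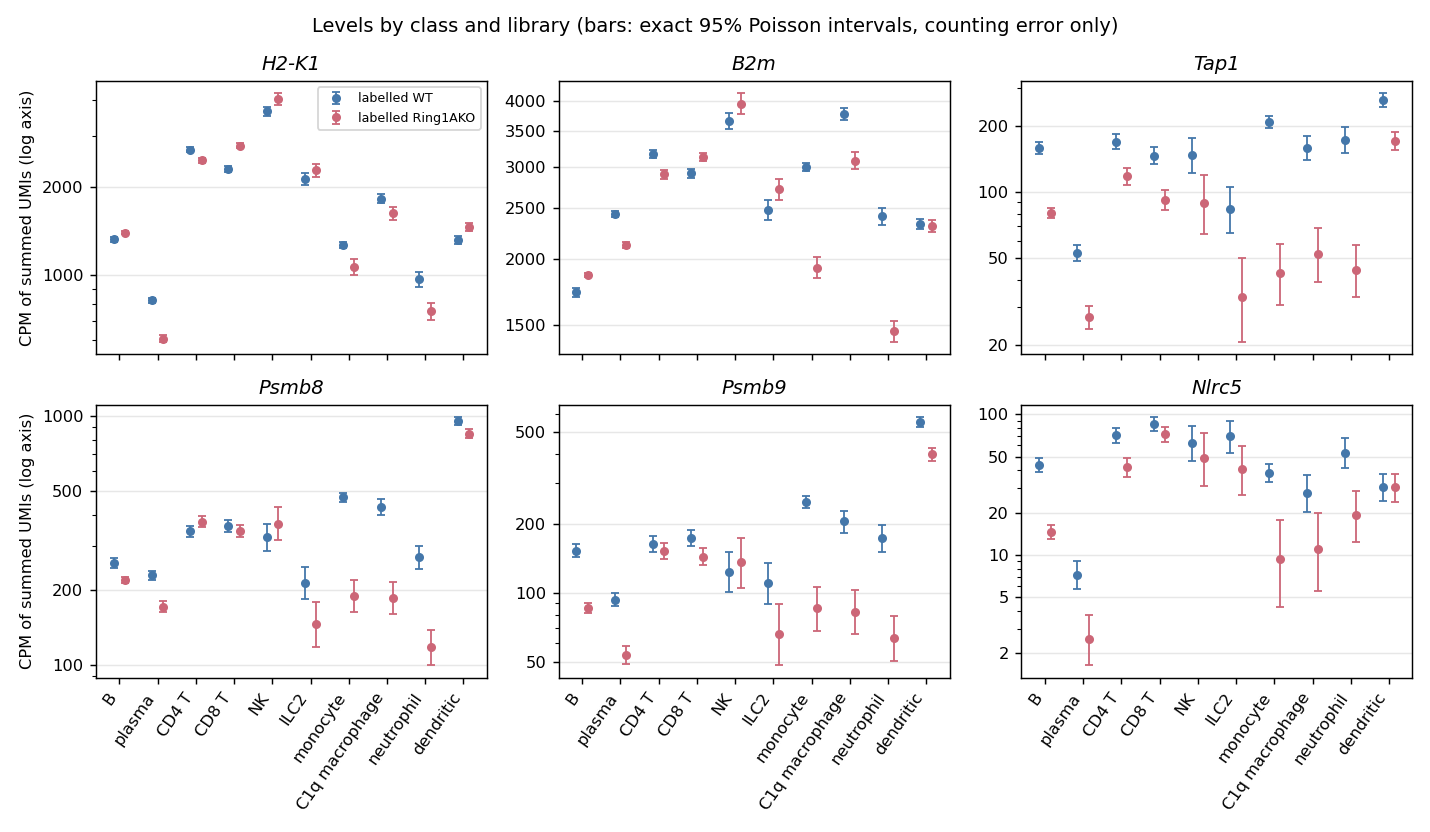
Levels of 6 of the 10 genes in CPM (y axes, log scale) in the 10 classes (x axis), labelled WT in blue and Ring1AKO in red, with exact 95% Poisson intervals for counting error. H2-K1 peaks in NK cells, and B2m peaks in C1q macrophages in WT and in NK cells in Ring1AKO. Tap1, Psmb8 and Psmb9 peak in dendritic cells, and the red points of Tap1 lie below the blue points in all 10 classes.

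Between the libraries, genes of peptide transport, loading and cutting were at least 1.5-fold lower in Ring1AKO in 26 of 60 gene and class pairs. At least 1.5-fold higher were 0, and the shares over all pairs of genes and classes were 20% and 5.15%. Beyond counting error they were lower in 42 pairs and higher in 2, Psmb8 in CD4 T cells and Psmb10 in CD8 T cells. The class I chains were lower in 14 and higher in 14 of 30. Counts beyond counting error, here and below, have no share over all genes beside them, so no excess can be read from them. A ratio here is the log2 of CPM in Ring1AKO over WT, with 1 UMI added to each sum. Of 100 gene and class pairs, 35 were at least 1.5-fold lower in Ring1AKO and 0 at least 1.5-fold higher, against 20% and 5.15% of all 64680 pairs of genes and classes with at least 50 UMIs. Genes at least 1.5-fold higher made up 2.60% of those tested in B cells, 1.53% in plasma cells, 8.44% in CD4 T cells, 3.54% in CD8 T cells, 4.74% in NK cells, 10.5% in ILC2, 6.60% in monocytes, 7.42% in C1q macrophages, 7.13% in neutrophils and 4.27% in dendritic cells, and none of the 10 genes was among them in any class. The median ratio of the 100 pairs was -0.33, against -0.18 over all pairs. The ratio was below 0 in 77 pairs and above 0 in 23, and these became 64 and 36 with TMM scaling and 63 and 37 with median-of-ratios scaling. With every cell thinned to 1000 UMIs, 73 pairs had enough UMIs, of which 42 were below 0 and 31 above. Those scalings set the centre of all genes of a class to 0 by subtracting it, and this centre was -0.47 in plasma cells, -0.23 in monocytes, -0.23 in neutrophils, -0.18 in dendritic cells and -0.17 in B cells with median-of-ratios scaling, and nearer to 0 than 0.1 in the other classes. Ratios in these 5 classes rise by that amount under the scaling and are to be read against it. Most ratios of C1q macrophages and neutrophils moved nearer to 0 with a narrower gate, whose values are given with those classes. Pairs at least 1.5-fold lower numbered 29 of 100 with either scaling and 26 of 98 with the narrower gates. The share over all genes was not counted again under these settings.

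**Figure D2:**
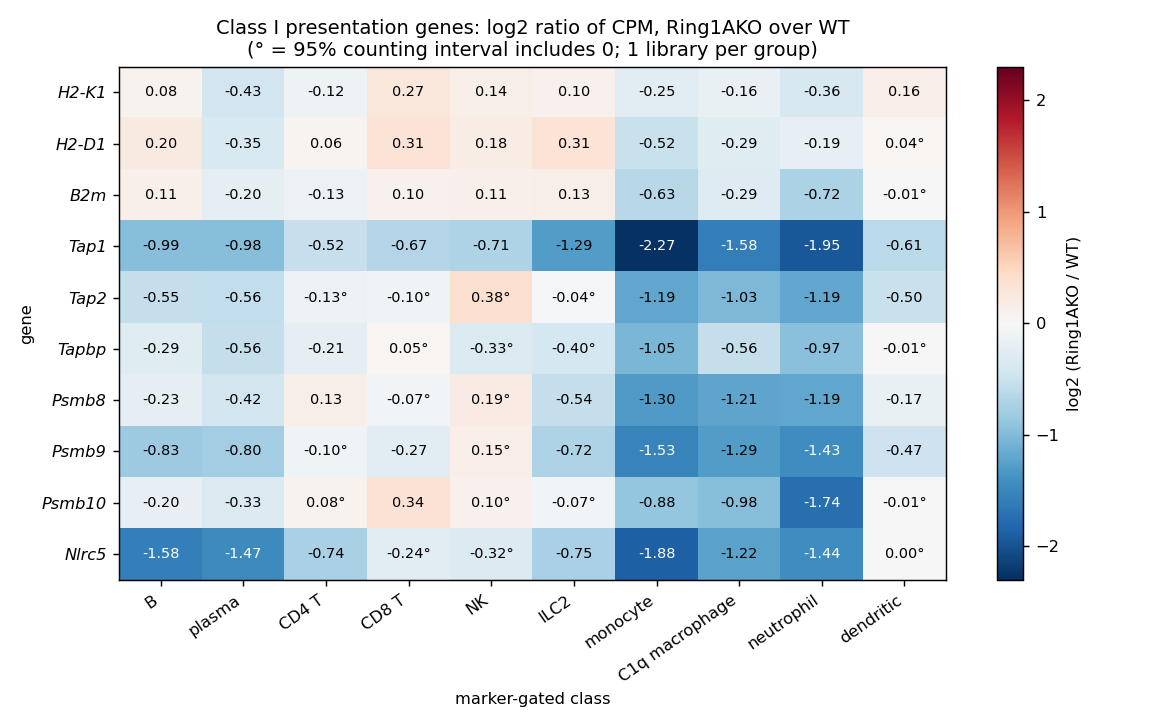
Log2 ratio of CPM, Ring1AKO over WT, for the 10 genes (rows, grouped by role) in the 10 classes (columns), with the value in each cell. The lowest values stand in the columns of monocytes, C1q macrophages and neutrophils, where the medians were -1.12, -1.01 and -1.19, and the rows of the class I chains stay nearest to 0.

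The class I chains had a median ratio of 0.01 over 30 pairs, with 14 lower and 14 higher beyond counting error and 2 at least 1.5-fold lower. H2-K1 was lower in monocytes (1273 and 1071 CPM), C1q macrophages (1830 and 1632 CPM) and neutrophils (969 and 754 CPM) and higher in CD8 T cells (2310 and 2783 CPM). H2-D1 was lower in monocytes (1791 and 1252 CPM, ratio -0.52) and higher in B cells (1216 and 1395 CPM) and ILC2 (1837 and 2281 CPM, ratio 0.31). All 3 chains were lower in monocytes, C1q macrophages and neutrophils and higher in CD8 T cells, NK cells and ILC2, by less than 1.5-fold in all of these pairs but B2m in monocytes and in neutrophils. The sign of H2-D1 in neutrophils turned in 2 of 14 alternative settings. B2m was at 2997 and 1931 CPM in monocytes, a ratio of -0.63 (-0.71 to -0.56). In neutrophils it was at 2413 and 1461 CPM, a ratio of -0.72 (-0.81 to -0.64), and each of these 2 B2m values passed under 1.5-fold in 3 of 14 alternative settings.

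Tap1, the gene of the transporter's first chain, differed most widely. Its ratio was below 0 beyond counting error in all 10 classes and past 1.5-fold in 9 of them, with a median of -0.98. The 1.5-fold call was lost in 4 of 14 alternative settings in plasma cells, 5 in dendritic cells and 2 in CD8 T cells. Of the 14, 2 repeat the main ratio in these classes, dropping the minimum of UMIs per gene and the narrower gates. In monocytes 1002 UMIs (210 CPM) were counted in WT and 41 (42.6 CPM) in Ring1AKO, a ratio of -2.27 (-2.79 to -1.85). In neutrophils Tap1 was at 173 and 44.1 CPM and in C1q macrophages at 160 and 52.4 CPM. In B cells it was at 160 and 80.8 CPM, in plasma cells at 52.9 and 26.8 CPM and in ILC2 at 83.6 and 33.1 CPM. T and NK cells and dendritic cells differed less, with 170 and 118 CPM in CD4 T cells, 147 and 92.5 CPM in CD8 T cells, 148 and 89.1 CPM in NK cells and 264 and 172 CPM in dendritic cells. CD4 T cells, at a ratio of -0.52, were the class that did not reach 1.5-fold.

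Tap2, its partner chain, was past 1.5-fold in 3 classes. It was at 94.99 and 40.5 CPM in monocytes, 102 and 49.4 CPM in C1q macrophages and 85.1 and 36.9 CPM in neutrophils, but in the last 2 of these classes it was within 1.5-fold with the narrower gate. In CD4 T cells (102 and 92.6 CPM), CD8 T cells (86.2 and 80.4 CPM), NK cells and ILC2 the intervals of the ratio held 0. The share of Tap1 in the UMIs of both transporter genes was lower in Ring1AKO with intervals that did not overlap in 7 of 10 classes, for example 68.9% and 51.2% in monocytes. Counts of classes with separate intervals have no share over other genes beside them, so no excess can be read from this one. In plasma cells the intervals nearly met (lower end 49.47% in WT, upper end 49.42% in Ring1AKO). The intervals also nearly met in CD4 T cells (59.66% and 59.57%), NK cells (58.34% and 58.06%) and ILC2 (44.56% and 44.21%). Without barcodes holding 3 or more mast marker UMIs, those of ILC2 overlapped (45.2% to 63.5% and 23.6% to 51.0%). Tapbp was past 1.5-fold in monocytes (319 and 153 CPM, ratio -1.05) and neutrophils (244 and 124 CPM, ratio -0.97), and its intervals held 0 in CD8 T cells, NK cells, ILC2 and dendritic cells. Over the 30 pairs of Tap1, Tap2 and Tapbp the median was -0.56, with 22 lower and 0 higher beyond counting error.

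The immunoproteasome subunits had a median ratio of -0.37 over 30 pairs, with 12 at least 1.5-fold lower, 20 lower and 2 higher beyond counting error. With median-of-ratios scaling the median over classes was -0.02 for Psmb8, 0.07 for Psmb10 and -0.49 for Psmb9. Psmb9 differed in the most classes, with 6 of 10 past 1.5-fold, a call lost in 3 of 14 alternative settings in plasma cells, 2 in ILC2 and 1, the narrower gate, in C1q macrophages. It was at 249 and 85.3 CPM in monocytes, a ratio of -1.53 (-1.89 to -1.22), at 204 and 82.7 CPM in C1q macrophages, at 173 and 63.4 CPM in neutrophils and at 152 and 85.6 CPM in B cells. In CD4 T cells (162 and 152 CPM) and NK cells (123 and 136 CPM) its intervals held 0. Psmb8 was at 470 and 189 CPM in monocytes, 431 and 185 CPM in C1q macrophages and 271 and 118 CPM in neutrophils, and was within 1.5-fold in the other classes. Psmb10, the gene of the subunit outside the MHC region, was at 235 and 127 CPM in monocytes, 199 and 99.8 CPM in C1q macrophages and 112 and 32.9 CPM in neutrophils. In CD8 T cells it was higher in Ring1AKO, at 104 and 132 CPM, a ratio of 0.34 (0.14 to 0.54).

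Nlrc5 had the median ratio of -0.99 and was past 1.5-fold in 7 classes, on few UMIs in most. That call was lost in 2 of 14 alternative settings in CD4 T cells and 2 in ILC2. In B cells it was at 43.7 CPM (273 UMIs) in WT and 14.6 CPM (268 UMIs) in Ring1AKO, a ratio of -1.58 (-1.83 to -1.33) and the lowest of any of the 10 genes in that class. Monocytes held 182 and 9 UMIs (38.2 and 9.36 CPM), C1q macrophages 44 and 11 UMIs and neutrophils 66 and 24 UMIs. CD8 T cells, where its level was highest, held 85.3 and 72.0 CPM with an interval that reached 0 (-0.49 to 0.00), and dendritic cells were at 30.4 and 30.3 CPM. The low Nlrc5 level of Ring1AKO B cells stood beside class I chains that were slightly higher there, with ratios of 0.08 for H2-K1, 0.20 for H2-D1 and 0.11 for B2m.

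Monocytes had all 10 ratios below 0 beyond counting error and 8 past 1.5-fold, against 22.9% of 7088 genes tested in that class, with a median of -1.12 against -0.19 over those genes. The range over the 14 alternatives was -1.26 to -0.89. Among these, the narrower gates left monocytes unchanged, and dropping the minimum of UMIs per gene cannot alter this median. Both therefore repeat the main value, and monocytes were not measured with a narrower gate. Median depth in this class was 8961 UMIs per cell in WT and 7179 in Ring1AKO, the summed level of 4 epithelial markers was 236 and 8.32 CPM, that of 2 globin genes 997 and 56.1 CPM, and that of the 7 monocyte gate markers 9896 and 7135 CPM. All the epithelial and globin markers were above 0 in both libraries, and the part of these differences in the result was not tested. The monocyte gate was met by 998 and 340 barcodes, and the 538 and 129 used here met no other gate. The study reports that a monocyte/macrophage group with high CXCL9 and CXCL10 almost disappeared in the knockout mice. The part of such a change in the make-up of this class was not tested.

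C1q macrophages had 10 ratios below 0 beyond counting error and 6 past 1.5-fold (12.0% of 5065 genes), with a median of -1.01 against -0.06. Neutrophils had 10 and 8 (25% of 3716 genes), with a median of -1.19 against -0.22. In both classes the 7 monocyte gate markers moved with the result: they summed to 4023 and 1003 CPM in C1q macrophages and to 3158 and 1030 CPM in neutrophils, none at 0. The 3 C1q genes summed to 5311 and 7057 CPM in the macrophages and the 8 neutrophil markers to 17876 and 32041 CPM in the neutrophils, and 4 epithelial markers to 345 and 16.9 CPM and 3 ILC3 markers to 4.05 and 298.6 CPM in the neutrophils.

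Both classes were therefore measured again without barcodes that held 2 or more monocyte markers, a limit set after the data were seen. This left out 115 of 206 and 57 of 177 C1q macrophages and 64 of 228 and 93 of 230 neutrophils. The median of the 10 genes then was -0.37 in C1q macrophages, with 2 genes past 1.5-fold, and -0.47 in neutrophils, with 4. Ratios lower beyond counting error numbered 5 in C1q macrophages and 6 in neutrophils. Tap1 remained past 1.5-fold in both, at 90.4 and 39.4 CPM in macrophages (ratio -1.17, -2.02 to -0.41) and 146 and 46.9 CPM in neutrophils (ratio -1.60, -2.28 to -1.04). Psmb8, at ratios of -1.21 and -1.19 before, was at -0.46 and -0.37. Tap2 was at -0.24 (-1.003 to 0.54) in macrophages and -0.51 (-1.31 to 0.23) in neutrophils, and Psmb9 at -0.53 (-1.10 to 0.03) and -0.64 (-1.23 to -0.09). H2-K1 was at -0.10 and -0.09, with intervals that held 0 in both. Psmb10 in neutrophils was at 0.22 on 25 UMIs. Most of the ratios thus lay nearer to 0 without those barcodes, and Tap1 had the lowest ratio of the genes with at least 50 UMIs in both classes.

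**Figure D3:**
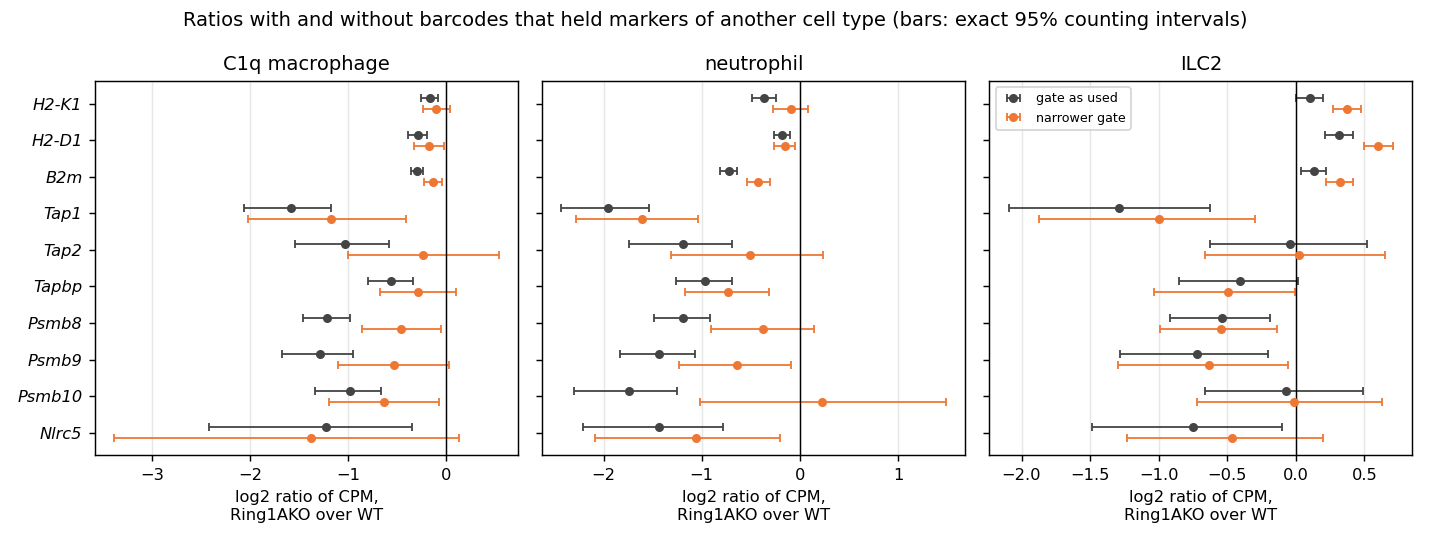
Log2 ratio of CPM, Ring1AKO over WT (x axes), of the 10 genes (rows) in C1q macrophages, neutrophils and ILC2, with all gated barcodes (dark) and with the narrower gate (orange), bars being exact 95% counting intervals. The orange points of most genes lie nearer to 0 in C1q macrophages and neutrophils, where the medians went from -1.01 to -0.37 and from -1.19 to -0.47.

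B cells had 7 ratios lower and 3 higher beyond counting error, with 3 past 1.5-fold (17.5% of 9941 genes): Nlrc5, Tap1 and Psmb9. Their median was -0.26 against -0.18 over all genes, and it was -0.08 with either other scaling. The cycling markers in B cells summed to 155 and 44.0 CPM, and their part in the result was not tested. Plasma cells had 10 ratios below 0, with a median of -0.50 against -0.46, and 3 genes past 1.5-fold where 39.3% of 8248 genes were. Cycling markers in plasma cells summed to 90.8 and 11.7 CPM and fibroblast markers to 16.8 and 1.22 CPM, and their part in the result was not tested. The 10 genes as a set thus stood where the other genes of plasma cells stood, and all 3 chains changed sign in plasma cells with median-of-ratios scaling.

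CD4 T cells had 1 gene past 1.5-fold, Nlrc5 (70.7 and 42.3 CPM), against 13.5% of 8237 genes, and a median of -0.12 against -0.05. CD8 T cells had 1, Tap1, against 13.3% of 7937 genes, and a median of -0.01 against -0.10, and NK cells had 1, also Tap1, against 14.0% of 3463 genes, and a median of 0.12 against -0.08. These shares of 10 genes are no higher than the background. The 2 globin genes summed to 10.5 and 3163 CPM in CD8 T cells, and 3 markers of ILC3 summed to 706 and 8.49 CPM in NK cells and to 618 and 141 CPM in CD4 T cells, the 3 cycling markers to 232 and 29.7 CPM in NK cells, and their part in the results was not tested. ILC2 had 3 genes past 1.5-fold (Tap1, Psmb9 and Nlrc5) against 17.5% of 3718 genes, and a median of -0.24 against -0.07. Mast cell markers, 4 genes with none at 0, summed to 775 and 2087 CPM there. The 6 NK gate markers summed to 30.2 CPM in ILC2 labelled WT, with 4 at 0, and to 235 CPM in those labelled Ring1AKO, with 1 at 0, and their part in the values of the class I chains in ILC2 was not tested. Without barcodes holding 3 or more mast marker UMIs, the median in ILC2 was -0.24, as before. H2-D1 then was at 1968 and 2989 CPM, a ratio of 0.60. Tap1 and Psmb9 stayed past 1.5-fold, while Nlrc5 was at -0.46 (-1.23 to 0.20).

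Dendritic cells, which had the highest levels of 4 of the genes, differed least among the myeloid classes. Tap1 was the gene past 1.5-fold, against 20.2% of 7267 genes. Psmb9 (555 and 400 CPM, ratio -0.47) and Tap2 (159 and 112 CPM, ratio -0.50) were lower beyond counting error, while Tapbp (272 and 270 CPM), Psmb10 (175 and 175 CPM), Nlrc5 and B2m (2335 and 2318 CPM) had intervals that held 0. With cells thinned to 1000 UMIs the ratio of Tap2 was 0.61. Cycling markers summed to 285 and 89.7 CPM and fibroblast markers to 425 and 190 CPM in dendritic cells. Of the markers outside the gate, Ccr7 was at 787 and 1535 CPM, Cst3 at 12096 and 12864 CPM, Batf3 at 148 and 144 CPM and Wdfy4 at 336 and 245 CPM. The part of these markers, and of a change in the mix of dendritic cells, in the result was not tested. The median was -0.01 against -0.18 over all genes.

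The exchange of proteasome subunits can be read within the same cells, as the share of Psmb8, Psmb9 and Psmb10 in the UMIs of all 6 catalytic subunits. This share does not depend on the total of the library. In monocytes it was 68.9% (67.8 to 70.1) and 51.8% (48.2 to 55.5). In C1q macrophages it was 70.1% and 53.2%, in neutrophils 74.6% and 56.8% and in ILC2 67.9% and 51.1%. With the narrower gates it was 61.0% (55.9 to 66.0) and 53.0% (47.9 to 58.0) in C1q macrophages, whose intervals overlap, 74.2% and 58.2% in neutrophils and 71.1% and 58.4% in ILC2. B cells were at 66.4% and 57.5% and CD4 T cells at 67.1% and 59.4%. A lower share can come with more of the constitutive subunits: in CD4 T cells Psmb5 was at 99.3 and 160 CPM, Psmb6 at 111 and 152 CPM and Psmb7 at 78.1 and 107 CPM, each higher in Ring1AKO beyond counting error, with ratios of 0.69, 0.45 and 0.46 beside 0.13, -0.10 and 0.08 for Psmb8, Psmb9 and Psmb10. In B cells Psmb5 (0.28) and Psmb6 (0.25) and in ILC2 Psmb5 (1.03) were likewise higher. With all gated barcodes the share was lower in Ring1AKO with intervals that did not overlap in 9 classes, the exception being NK cells at 64.7% and 66.0%. The intervals nearly met in dendritic cells (lower end 74.30% in WT, upper end 74.10% in Ring1AKO) and in CD8 T cells (66.77% and 66.43%). Dendritic cells kept the highest shares, 75.4% and 72.9%, with the smallest difference of those 9. For single pairs of subunits, Psmb9 among Psmb9 and Psmb6 was lower with intervals apart in 7 classes (60.3% and 38.9% in monocytes, 62.9% and 44.4% in B cells). Psmb8 among Psmb8 and Psmb5 was so in 6 and Psmb10 among Psmb10 and Psmb7 in 3, with none higher. These counts and that of 9 classes have no share over other genes beside them, so no excess can be read from them.

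**Figure D4:**
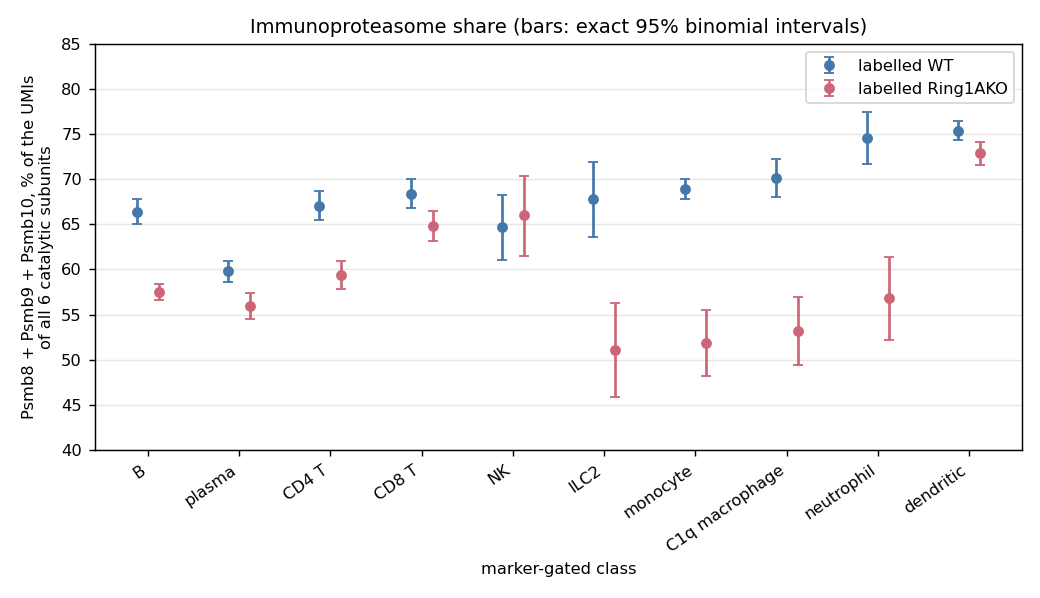
Share of Psmb8, Psmb9 and Psmb10 in the UMIs of the 6 catalytic proteasome subunits (y axis, percent) in the 10 classes (x axis), labelled WT and Ring1AKO, with exact 95% binomial intervals. The Ring1AKO share is lower in every class but NK cells, from 68.9% to 51.8% in monocytes and from 75.4% to 72.9% in dendritic cells.

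The difference in Tap1 was also seen in the share of cells with at least 1 UMI, with intervals that did not overlap in some classes only. With every cell thinned to 1000 UMIs, 95 of 538 WT monocytes (17.7%) and 3 of 129 Ring1AKO monocytes (2.33%) held a Tap1 UMI, and 66.2% and 17.1% did before thinning. In B cells the thinned shares were 14.6% and 7.73% and in dendritic cells 24.9% and 10.7%. The intervals of the thinned shares overlapped in plasma cells, CD4 T cells (14.3% and 10.2%), NK cells, ILC2 and C1q macrophages (10.7% and 5.65%). Psmb9 was found in 21.9% and 6.98% of thinned monocytes. Nlrc5 was found in 24 and 1 thinned monocytes, too few to read. In CD8 T cells it was found in 6.22% and 7.26% after thinning, with intervals that overlapped, and in 41.2% and 34.1% before thinning. Of the summed UMIs of the transporter and immunoproteasome genes, 36.6% and 67.4% of monocytes held none after thinning, and in dendritic cells 18.6% and 27.1% did. The share with none went the other way in CD4 T cells (51.0% and 48.9%), CD8 T cells (51.6% and 46.3%) and NK cells (53.2% and 51.9%). It was higher in Ring1AKO in the remaining classes. No class here is known to lack these genes, so no class gives a background level. Barcodes with fewer than 100 UMIs held Tap1 at 161 and 84.8 CPM, lower in Ring1AKO as in the cells. The Ring1AKO level of these barcodes lay above that of Ring1AKO monocytes (42.6 CPM), so the cell-free level is not a floor.

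Other genes of the pathway, 28 named by role, showed which steps moved along with the 10. In monocytes 24 of them had at least 50 UMIs, and 10 were at least 1.5-fold lower and 0 higher, against 22.9% and 6.60% of all genes tested, with a median of -0.51 against -0.19. In C1q macrophages it was 10 of 23 and 0, against 12.0% and 7.42%, with a median of -0.30 against -0.06, measured with all gated barcodes. Among the regulators, Irf1 was at 433 and 119 CPM in monocytes (ratio -1.86) and 268 and 91.7 CPM in C1q macrophages, and Irf2 at 102 and 46.8 CPM and 89.2 and 35.3 CPM. Irf1 was lower beyond counting error in all 10 classes, with ratios from -0.38 in CD8 T cells to -1.92 in neutrophils. The interferon-gamma receptor and its kinases (Ifngr1, Ifngr2, Jak1 and Jak2) stayed within 1.5-fold in both C1q macrophages and monocytes. Without barcodes holding monocyte markers, Irf1 was at -0.48 in C1q macrophages, with an interval that held 0, and at -1.61 in neutrophils.

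The proteasome activator genes Psme1 (495 and 258 CPM) and Psme2 (443 and 201 CPM) were lower in monocytes, as in C1q macrophages, where the assembly factor Pomp also passed 1.5-fold (366 and 225 CPM). The constitutive catalytic subunits did not move with them: Psmb5 was at 171 and 143 CPM, Psmb6 at 164 and 134 CPM and Psmb7 at 94.99 and 95.7 CPM in monocytes, with ratios of -0.25, -0.28 and 0.02. In the loading step, Pdia3, an oxidoreductase of the loading complex, was at 246 and 111 CPM, the tapasin relative Tapbpl at 31.9 and 13.5 CPM and the trimming peptidase Erap1 at 36.1 and 8.32 CPM on 172 and 8 UMIs. The chaperone Calr was higher in monocytes labelled Ring1AKO, at 436 and 559 CPM, a ratio of 0.36. Of the non-classical class I genes, H2-T23 (375 and 154 CPM), H2-T22 (89.5 and 46.8 CPM) and H2-M3 (45.1 and 28.1 CPM) passed 1.5-fold in monocytes, while H2-Q4, H2-Q6 and H2-Q7 did not in monocytes or C1q macrophages.

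**Figure D5:**
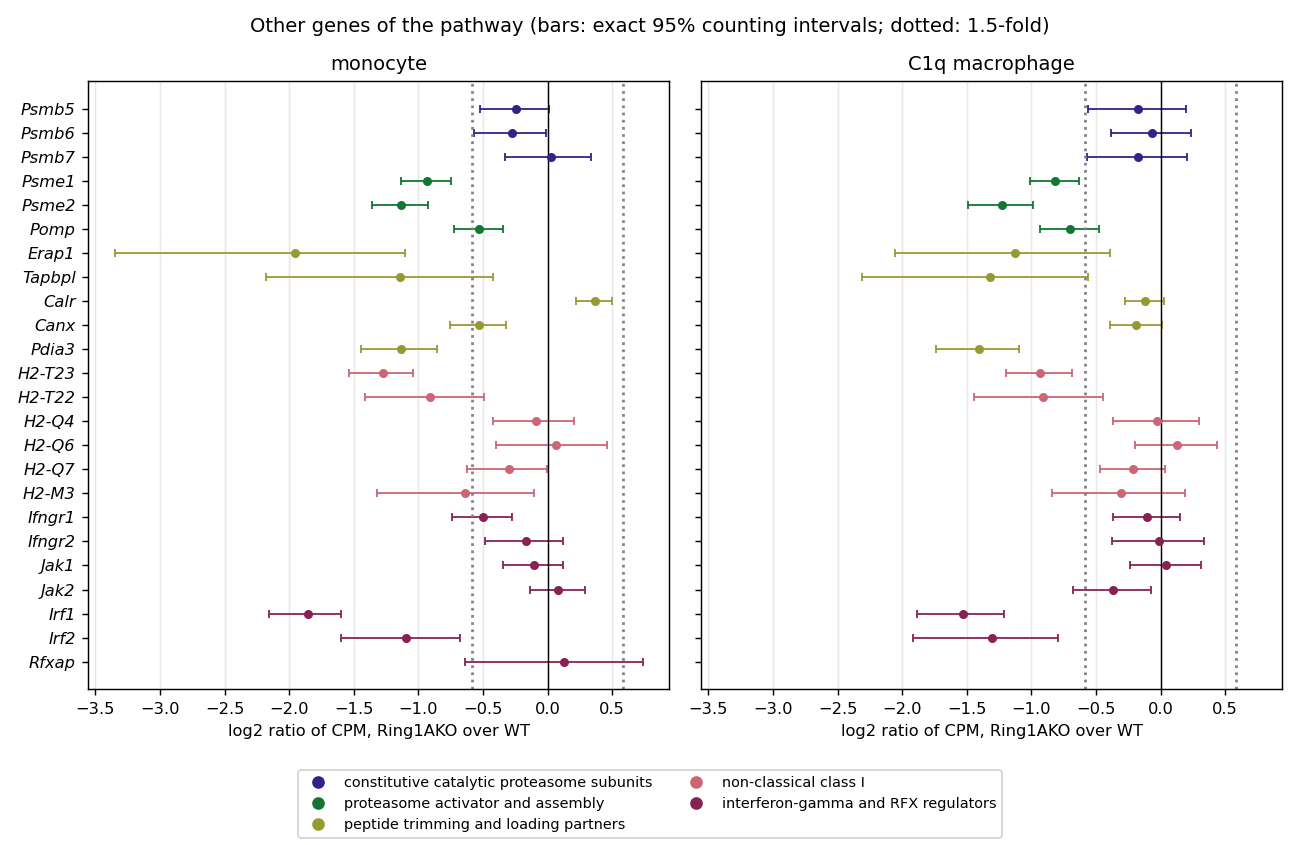
Log2 ratio of CPM, Ring1AKO over WT (x axis), of the pathway genes outside the 10, by role (y axis) and class (panels), 1 point per gene with at least 50 UMIs, bars being exact 95% counting intervals and dotted lines 1.5-fold. The lowest points are Erap1 in monocytes (-1.95) and Irf1 in C1q macrophages (-1.53), and the constitutive subunits lie near 0.

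Across the 20 sums of a class and a library, the genes whose log2(CPM + 1) was most like the mean of the 10 were, among 5252 genes ranked, Nmi (Pearson's r = 0.92), Psme1 (r = 0.90), Tomm7 (r = 0.90), Fam168a (r = 0.90) and Oxsr1 (r = 0.89). Within the 10, Tap2 was nearest to the mean (r = 0.95) and B2m farthest (r = 0.61), Psmb8 and Psmb9 were the most alike pair (r = 0.96), and Tapbp had no linear relation with H2-K1 (r = 0.00). The 20 points share 2 libraries and their depth, so these values are a description.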

How the data were processed

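UMI counts per gene and barcode were deposited by the authors as unfiltered matrices, 1 per library, with no normalization and with total counts of 74414511 (WT) and 81862096 (Ring1AKO). The chemistry was 10x 3′, kit version 3 per the labels and 3.1 in the study's methods. Cell Ranger is given as 3.0.1 with mm10 in those methods, as 4 in the matrix header, and as 6.0.2 with mm39 in the submitters' processing notes, which also name Seurat. The genes, gates and lists were chosen with earlier results of these data known.

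Barcodes with at least 1000 UMIs, at least 500 genes and less than 5% mitochondrial UMIs were kept. A class needed 2 to 4 markers of its panel, with limits on markers of other lineages. Barcodes meeting several gates (868 and 834) or none (1067 and 1243) were left out of the classes, which is how doublets were treated, and no doublet caller was run. UMIs were summed per class and library. Levels were given exact Poisson, ratios exact conditional binomial and shares Clopper-Pearson intervals at 95%, which cover counting error only. Ratios had 1 UMI added to each sum. A gene counted as different past 1.5-fold with at least 50 UMIs. A zero allows up to 3 UMIs at a 1-sided 95% limit, which differs from the intervals above. Poisson counts with known changes were simulated for the 5065 to 9941 genes of the B cell, monocyte and C1q macrophage classes. The direction was recovered for 96% to 100% of the genes changed, and 92% to 99% of intervals held the truth. The simulation held counting error only, as the intervals assume. It checks the calculation and says nothing of the spread between cells, mice or libraries.

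Named genes were all 10 genes, pathway genes at least 1.5-fold apart in monocytes or C1q macrophages, Psmb5, Psmb6, Psmb7 and Irf1, Ring1, and the 5 genes most like the mean of the 10 at 20 CPM or more. A gene of the pathway list is not reported here. Other pathway genes named for staying within 1.5-fold, Calr, and the dendritic cell markers named from outside the gate were chosen after their values were seen. Results were recomputed under 12 other choices of filter, gate, denominator, scaling and depth, and under 2 more chosen after the data were seen. Python 3.11.15 with numpy 2.4.6, scipy 1.17.1 and pandas 2.3.3 was used, and TMM factors came from edgeR 4.0.16 in R 4.3.3. Gene positions came from GENCODE vM21 and promoter sequences from RefSeq, both on GRCm38.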

Additional observations from a re-analysis of the deposited data

Results flagged for a closer look

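For 5 of the 10 genes the ratio of Ring1AKO over WT had opposite signs in different classes, beyond counting error in both with all gated barcodes, and each sign was kept under every alternative setting. The ratio of H2-K1 in CD8 T cells exceeded that in neutrophils by 0.63 on the log2 scale, that of H2-D1 in ILC2 exceeded that in monocytes by 0.83, and that of B2m in ILC2 exceeded that in neutrophils by 0.85. For Psmb8 the ratio in CD4 T cells exceeded that in monocytes by 1.44, and for Psmb10 the ratio in CD8 T cells exceeded that in C1q macrophages by 1.32. With the narrower gate H2-K1 in neutrophils was at -0.09 (-0.27 to 0.09), which is not beyond counting error. The share of all genes with such opposite signs was not counted, so 5 of 10 cannot be read as an excess. With 1 library per group these differences were not tested, and the classes of a library share its pool of mice.

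Barcodes with fewer than 100 UMIs, which belong to no cell, held Tap1 at 161 CPM in WT and 84.8 CPM in Ring1AKO, a ratio of -0.92. Cells that met no gate, 1067 and 1243, had a median ratio of -0.21 over the 10 genes, between -0.87 for Tap1 and 0.25 for H2-D1.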

How the results depend on the processing

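No paired analysis was possible because there was only 1 library of each genotype. Over 14 alternatives, the median over the 10 genes lay between -1.26 and -0.89 in monocytes and between -1.02 and -0.37 in C1q macrophages, where -0.37 came from leaving out barcodes with monocyte markers. The narrower gates changed only C1q macrophages, neutrophils and ILC2, so for monocytes and the other classes they repeat the main value. Dropping the minimum of UMIs per gene repeats the main ratios in every class. In B cells it was -0.0816 with TMM and -0.0844 with median-of-ratios scaling, which recentre all genes. Over all pairs it was -0.15 and -0.14 with those scalings. Pairs at least 1.5-fold lower numbered 22 to 39, the 22 being of 73 pairs with enough UMIs after thinning. They numbered 29 with either of those scalings and 26 of 98 with the narrower gates. Pairs at least 1.5-fold higher numbered 1 with 1 more marker in the gate (H2-D1 in ILC2), 1 with the narrower gates (H2-D1 in ILC2) and 2 after thinning (Psmb10 in CD8 T cells and Tap2 in dendritic cells). The median of B2m over classes, -0.07, changed sign to 0.0484 with a denominator without immunoglobulin genes, 0.0188 with the mean over cells, 0.18 with TMM, 0.19 with median-of-ratios scaling and 0.0495 after thinning, and the cause was not tested. That of H2-K1 lay between -0.02 and 0.10. That of Tap1 stayed between -1.04 and -0.72 and that of Nlrc5 between -1.04 and -0.79. Few UMIs limit Nlrc5, with 9 in Ring1AKO monocytes. A single pool per genotype limits every comparison, since neither the spread between mice nor a batch of the library can be measured.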

Other observations

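Cells that met several gates, 868 in WT and 834 in Ring1AKO, had all 10 genes lower in Ring1AKO beyond counting error, with a median ratio of -0.62 and a range of -0.95 to -0.13. Their mix differed between the libraries. Barcodes meeting the monocyte and neutrophil gates numbered 296 and 151, and those meeting the B and plasma gates 221 and 271. The part of this mix in the ratios was not tested, and no median over all genes was computed for these barcodes. In the cell-free barcodes the ratios followed the roles: H2-K1 was at -0.17, H2-D1 at -0.06 and B2m at -0.07, while Tap2 was at -0.62, Tapbp at -0.64, Psmb8 at -0.41, Psmb9 at -0.82, Psmb10 at -0.96 and Nlrc5 at -0.84.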
